A study of Mus musculus with 30 samples.

Results

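The genes described here encode the machines that carry newly made proteins into the endoplasmic reticulum (ER) and attach the first sugar chain to them. They were picked by name, by a rule that uses no measured value, but after earlier results of these data were known, so a shared direction among them is not an unprompted finding. They are 34 genes for the signal recognition particle (SRP), its receptor, the Sec61 translocon, the translocon-associated protein (TRAP) complex, the signal peptidase and the oligosaccharyltransferase (OST), out of 39179 gene identifiers in the deposited tables. RNA from the ventral prostate (VP) of 30 male C57BL/6 mice had been sequenced, 5 for each of 3 diets at each of 2 time points. The diets were normolipidic and took their fat from linseed oil (LO, rich in ω-3 polyunsaturated fatty acids), soybean oil (SO, rich in ω-6 polyunsaturated fatty acids) or lard (PF, rich in saturated fatty acids), and were given from weaning for 12 or 32 weeks. The labels name no genetic change or drug for any group. The study's methods describe glucose and insulin tolerance tests, with both agents injected, and an acute cold test late in the feeding, and do not say whether the sequenced mice went through them. Age and time on the diet rose together.

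A protein bound for secretion or for a membrane carries a signal peptide that SRP binds as it leaves the ribosome. SRP docks on its receptor in the ER membrane, the chain is threaded through the Sec61 channel with help from TRAP, Sec62 and Sec63, the signal peptidase cuts the signal peptide off, and OST moves a preassembled glycan from a lipid carrier onto asparagine residues of the chain. The luminal epithelium of the ventral prostate is a secretory tissue whose cells send large amounts of a few proteins through this route into the glandular lumen.

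The depth was 27590631 to 41301707 counts per mouse over all genes, and 33 of the 34 members passed the filter on low counts at both time points. Srp54a, the copy of the SRP subunit that reads the signal peptide, had at most 7 counts in any mouse. It has near-identical copies, and reads that align to more than 1 place were set aside, so its level is uncertain and it was not tested. The copy Srp54c, which is not a member, had 23.6 to 72.8 CPM (the share of a library's counts scaled to a common total). The spermine-binding protein gene Sbp, a defining marker of the tissue, took 9.09% to 23.9% of the counts, and the 4 seminal vesicle markers together reached at most 0.276 CPM in any mouse, so the markers matched the labelled tissue.

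The 6 mice numbered 1, with 1 such mouse in each group, stood apart from the rest. When they were compared with the 24 others within groups by edgeR, a comparison chosen only once the values were known, 37.3% of 16605 genes passed an adjusted p under 0.05, and so did 17 of the 33 members. Sec61b, a small subunit of the translocon, was highest in the mouse numbered 1 in all 6 groups, at 149 to 246 CPM against 78.4 to 117 CPM in the other mice (log2 difference 0.87 ± 0.058 (SE), adjusted p = 4.63e-12). Krtcap2, a small OST subunit, was likewise highest in these mice in 6 of 6 groups (log2 difference 0.44 ± 0.061, adjusted p = 1.59e-06). The catalytic OST subunit Stt3a and the translocon partner Sec63 were lowest in the mouse numbered 1 in 6 of 6 groups, and 12 members in all were lower and 5 higher in these libraries. What sets these libraries apart is not given in the sources used here. Each group holds 1 of them, and the main results are given with and without them.

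**Figure D1:**
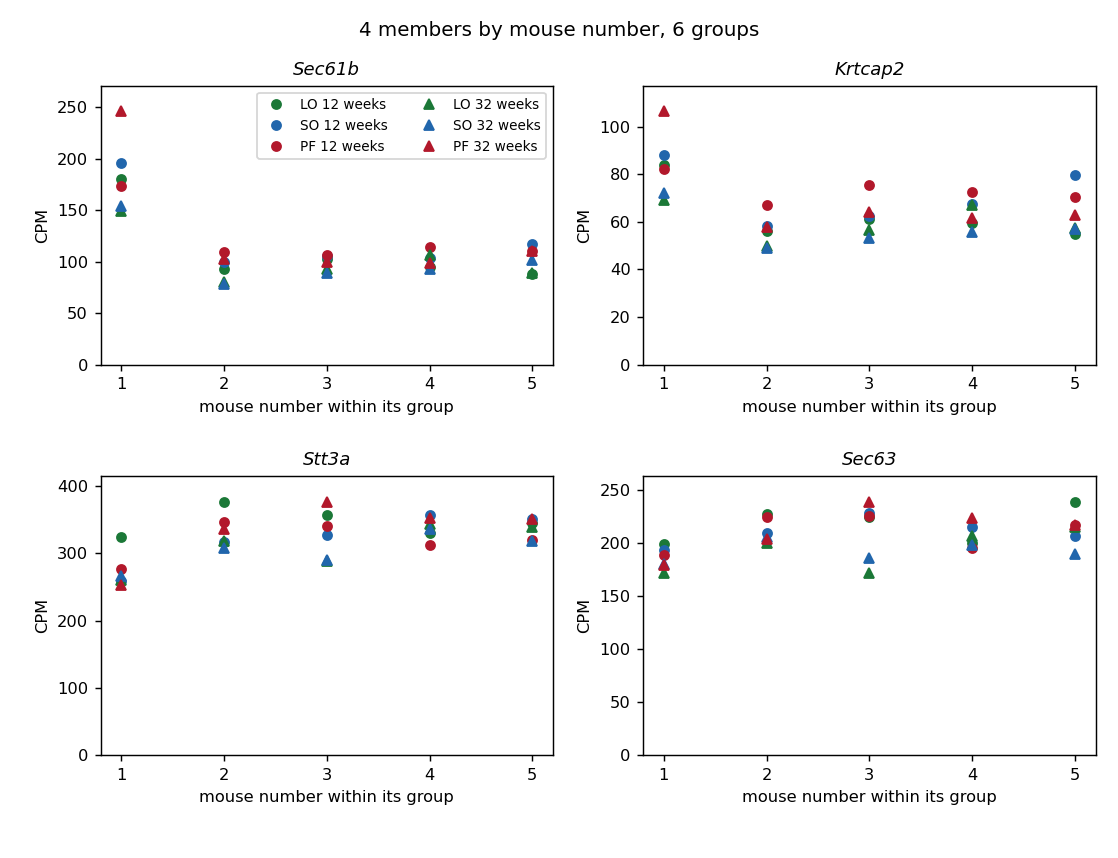
CPM (vertical axes, from 0) of Sec61b, Krtcap2, Stt3a and Sec63 against the number of the mouse within its group (horizontal axes), with 1 point for each of the 30 mice, coloured by diet and shaped by time point. Sec61b and Krtcap2 were highest, and Stt3a and Sec63 lowest, in the mouse numbered 1 of each of the 6 groups.

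The members differed widely in level. Per kilobase of the principal mRNA, the catalytic signal peptidase subunit Sec11c stood highest, with a median over the 30 mice of 498 (418 to 664) CPM per kilobase, lowest and highest mouse in parentheses, followed by the TRAP subunit Ssr4 at 394 (300 to 477). Their ranges overlapped. Spcs1, an accessory signal peptidase subunit, had 208 (163 to 255), Tram1, a translocon protein that contacts nascent chains, 201 (149 to 237), and Srpr, the GTPase subunit of the SRP receptor, 198 (147 to 233). The ranges of these 3 neighbours overlapped one another and lay below that of Ssr4. The SRP subunits ran from Srp14 at 101 (85.1 to 149) to Srp19 at 57 (45.8 to 71.1), with Srp9 at 87.9 (73.7 to 135), Srp68 at 77.3 (54.7 to 108) and Srp72 at 60.8 (41.5 to 73.4). Among the OST subunits Rpn2 was highest at 194 (169 to 211), and Tusc3 lowest at 29.2 (22.9 to 35). The lowest tested members were Srprb, the membrane anchor of the SRP receptor, at 15.2 (11.6 to 20.8), and the second channel gene Sec61a2 at 8.57 (6.81 to 9.71), whose ranges did not overlap.

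The spread within groups differed between members. The median coefficient of variation over the 6 groups was lowest for Rpn2, at 4.09%, and highest among the tested members for Sec61b, at 30.6%, which fell to 6.52% without the mice numbered 1. Krtcap2 went from 16.3% to 5.64% in the same way. Between its lowest and highest mouse of all 30, Rpn2 differed 1.24-fold, Ddost 1.32-fold and Sec11a 1.36-fold, whereas Sec61b differed 3.14-fold and Krtcap2 2.17-fold.

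**Figure D2:**
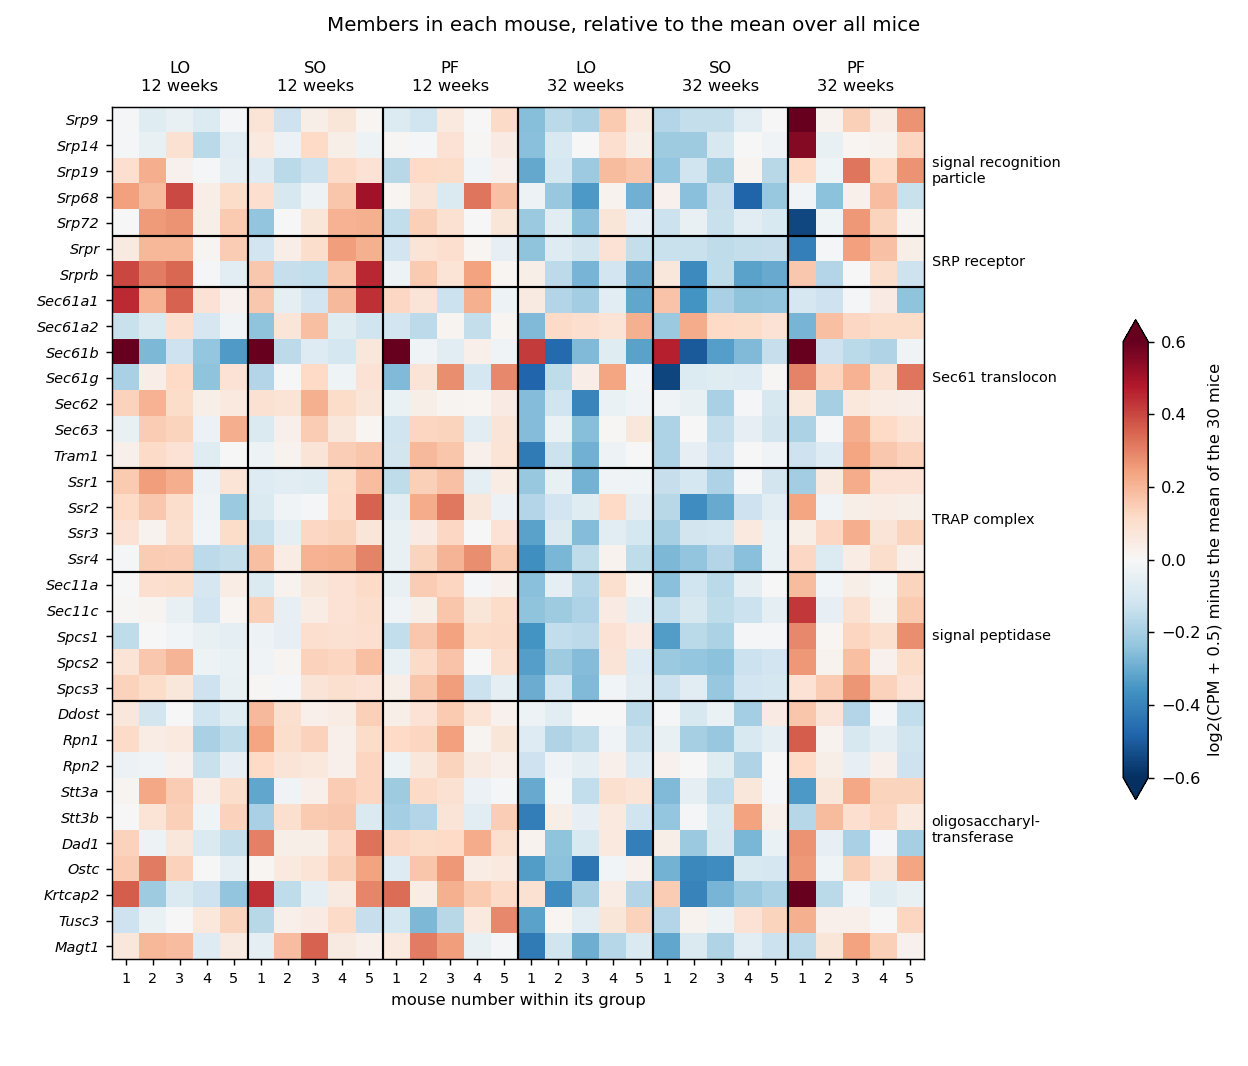
Heat map of the 33 tested members (rows, by machine) in the 30 mice (columns, by group and mouse number), as log2(CPM + 0.5) minus the member's mean over all mice. The SO mice of 32 weeks, and the LO mice of 32 weeks other than mouse 4, are mostly blue, below the mean. The LO mouse 4 of 32 weeks averaged 0.0342 over the members. Most cells of the PF mice of 32 weeks and of all 3 diets at 12 weeks are near or above the mean, and Sec61b and Krtcap2 stand out in the mice numbered 1.

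PF was compared with SO at 32 weeks to see whether the lard diet altered these genes. All 33 members had a higher fitted level in PF than in SO mice, with log2 fold changes from 0.0059 to 0.41 and a median of 0.21, beside a median of -0.0031 over the 16218 genes tested. None passed an adjusted p under 0.05 in edgeR, where 0% of all genes were called, and the lowest adjusted p of a member was 0.204. At an unadjusted p under 0.05, 17 of 33 members were higher in PF, or 51.5%, beside 5.71% of all genes. The DESeq2 Wald test called 3 members higher, Spcs2, Spcs3 and Ostc, beside 0.407% of the genes it tested. For 8 members every PF mouse was above every SO mouse, or 24.2%, beside 0.974% of all genes. Without the mice numbered 1 the median was 0.196, 24 of 33 members were higher at an unadjusted p under 0.05, beside 4.74% of all genes, and none was called. The PF and SO groups, then of 4 mice each, did not overlap for 14 members, beside 2.19% of all genes. Leaving out mice numbered 1 kept all 33 log2 fold changes above 0. With single PF or SO mice left out, 32 or 33 of them stayed above 0.

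All 5 signal peptidase subunits were higher in PF at an unadjusted p under 0.05, with a median log2 fold change of 0.29. Spcs3 (ENSMUSG00000054408, chr8:54520433-54529998 on GRCm38), an accessory subunit, stood at 243, 255, 276, 253 and 243 CPM in the PF mice 1 to 5 and at 209.8, 219.5, 196, 212 and 213 CPM in the SO mice. Every PF mouse lay above every SO mouse, with means of 254 ± 13.3 CPM (SD, n = 5) and 210 ± 8.68 CPM (SD, n = 5). The log2 fold change was 0.29 ± 0.061 (SE), with an unadjusted p of 0.000234, an adjusted p of 0.204 in edgeR and of 0.00256 in DESeq2, and 0.30 without the mice numbered 1. Spcs2 (ENSMUSG00000035227, chr7:99837569-99863462), another accessory subunit, stood at 320.0, 271, 303, 272 and 289 CPM in the PF mice 1 to 5 and at 229, 227, 225, 244 and 247 CPM in the SO mice. Its groups did not overlap either, with the PF mouse 1 highest, and the log2 fold change was 0.33 ± 0.078 (adjusted p = 0.278 in edgeR and 0.0184 in DESeq2), or 0.28 without the mice numbered 1. Spcs1 (ENSMUSG00000021917, chr14:30999826-31001672) stood at 179, 148, 161, 157 and 178 CPM in the PF mice 1 to 5 and at 116, 131, 129, 146 and 146 CPM in the SO mice. The lowest PF mouse was just above the highest SO mouse, and the log2 fold change was 0.32 ± 0.091 (adjusted p = 0.316), or 0.23 without the mice numbered 1. Of the catalytic subunits, Sec11c differed by 0.28 ± 0.092, with no overlap, and Sec11a by 0.21 ± 0.073, with overlap. For Sec11c the value without the mice numbered 1 was 0.17, and the PF mouse 1 had 571 CPM and the other PF mice 411 to 475 CPM.

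**Figure D3:**
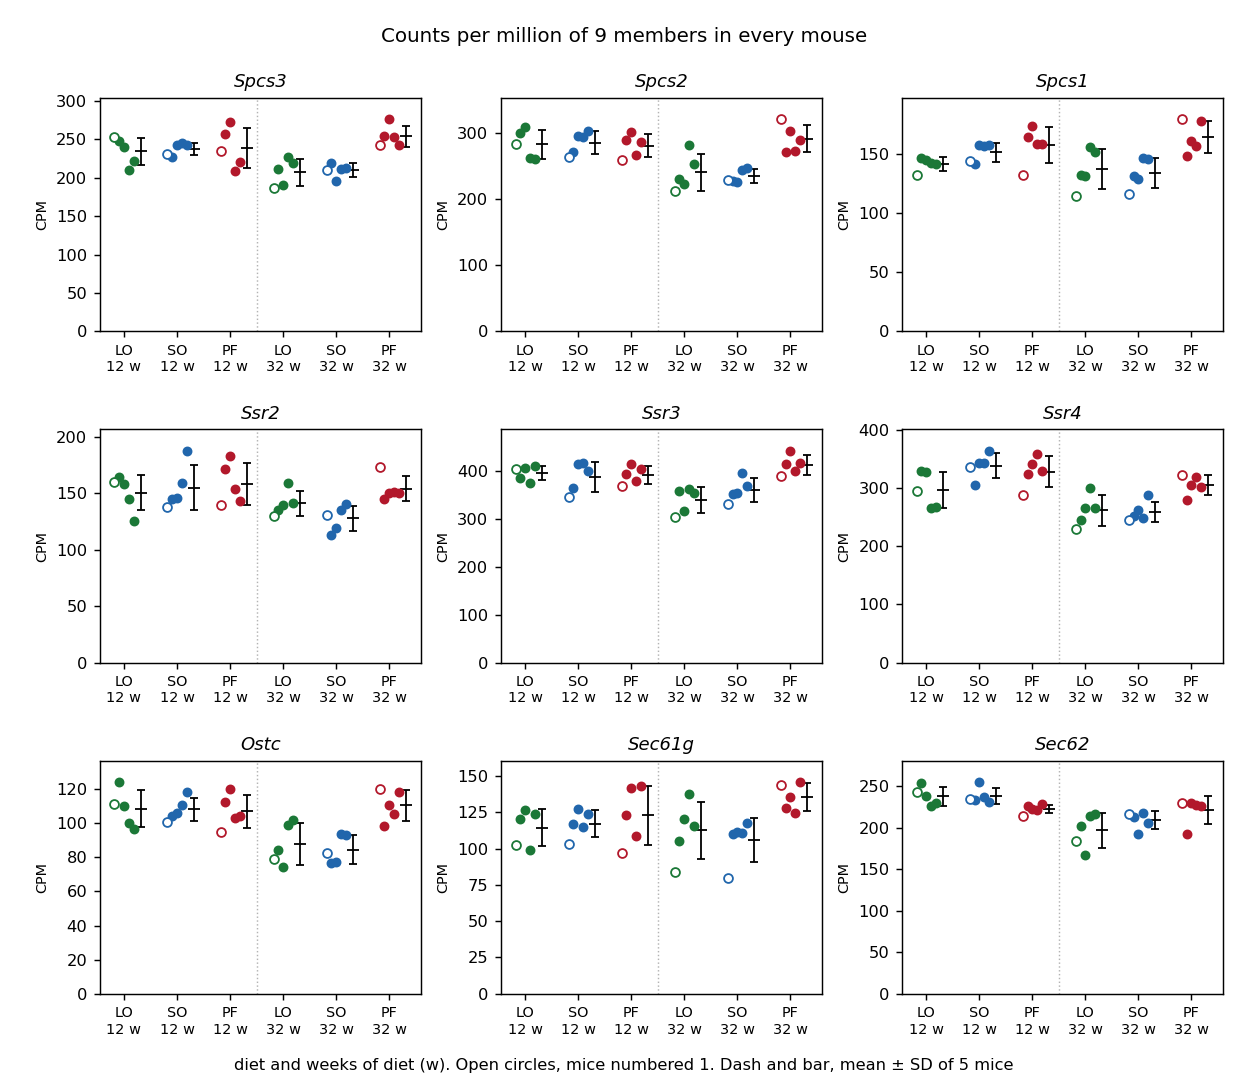
CPM (vertical axes, from 0) of 9 members in each mouse, by diet and weeks of diet, with open circles for the mice numbered 1 and a dash and bar for the mean ± SD of the 5 mice. At 32 weeks the PF points of Spcs3, Spcs2, Spcs1, Ssr2, Ostc and Sec61g all lie above the SO points, and at 12 weeks the 3 diets overlap for these genes.

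The 4 TRAP subunits, which assist signal peptides that open the channel poorly, were also all higher in PF at an unadjusted p under 0.05, with a median log2 fold change of 0.24. Ssr2 (ENSMUSG00000041355, chr3:88575876-88588419) stood at 174, 145, 151, 152 and 151 CPM in the PF mice 1 to 5 and at 131, 113, 119, 135 and 141 CPM in the SO mice. Its groups did not overlap, and the PF mouse 1 stood above the other PF mice. The log2 fold change was 0.29 ± 0.079 (adjusted p = 0.298), or 0.25 without the mice numbered 1. Ssr4 (ENSMUSG00000002014, chrX:73787028-73790830) stood at 324, 280.1, 306, 319 and 303 CPM in the PF mice 1 to 5 and at 246, 252, 262, 249 and 289 CPM in the SO mice. Only the SO mouse 5 reached the range of the PF mice, and the log2 fold change was 0.26 ± 0.075 (adjusted p = 0.331), or 0.21 without the mice numbered 1. Ssr3 (ENSMUSG00000027828, chr3:65379655-65392623) stood at 389, 414, 443, 400.4 and 416 CPM in the PF mice 1 to 5 and at 331, 352, 354, 396 and 369.5 CPM in the SO mice. The SO mouse 4 lay above the lowest PF mouse, and the log2 fold change was 0.21 ± 0.063 (adjusted p = 0.337), or 0.20 without the mice numbered 1. Ssr1 differed by 0.18 ± 0.072 (adjusted p = 0.411).

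Of the SRP, 5 subunits were tested and 3 were higher in PF at an unadjusted p under 0.05, with a median log2 fold change of 0.28 over the 5. Srp19 (ENSMUSG00000014504), which binds the RNA scaffold of the particle, stood at 54.1, 48.9, 62.3, 54.1 and 60.0 CPM in the PF mice 1 to 5 and at 42.4, 45.8, 42.9, 50.4 and 44.4 CPM in the SO mice. The SO mouse 4 reached the range of the PF mice, and the log2 fold change was 0.33 ± 0.097 (adjusted p = 0.344), or 0.31 without the mice numbered 1. Srp9 (ENSMUSG00000026511, chr1:182124737-182132407) and Srp14 form the domain that slows the ribosome. Srp9 stood at 185, 122, 133, 124 and 146 CPM in the PF mice 1 to 5 and at 107, 109, 109, 115 and 120.4 CPM in the SO mice, with no overlap and the PF mouse 1 highest. Its log2 fold change of 0.37 ± 0.12 (adjusted p = 0.349) was 0.22 without the mice numbered 1, and that of Srp14 went from 0.28 ± 0.11 to 0.12. Srp68 and Srp72, a pair that binds the RNA, differed by 0.20 ± 0.11 and 0.10 ± 0.11. Both subunits of the SRP receptor were higher in PF, Srpr by 0.18 ± 0.093 and Srprb by 0.23 ± 0.11, and only Srprb had an unadjusted p under 0.05 (0.0486). Srpr stood at 440.0, 580.1, 695, 661 and 599 CPM in the PF mice 1 to 5 and at 533, 533, 527, 529 and 532 CPM in the SO mice. The 5 SO mice lay within 527 to 533 CPM and the PF mouse 1 lay below them, and without the mice numbered 1 the log2 fold change of Srpr was 0.27.

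The translocon was less uniform. Of its 7 genes, 2 were higher in PF at an unadjusted p under 0.05, and the median log2 fold change was 0.17. Sec61g (ENSMUSG00000078974, chr11:16500530-16508484), the single-span subunit that clamps the channel, stood at 144, 128, 135, 125 and 146 CPM in the PF mice 1 to 5 and at 79.7, 110.2, 111, 111 and 118 CPM in the SO mice. Its groups did not overlap, and the SO mouse 1 stood far below the other SO mice. The log2 fold change was 0.38 ± 0.12 (adjusted p = 0.349), or 0.26 without the mice numbered 1. Sec63, which brings the chaperone BiP to the channel, differed by 0.16 ± 0.077 and Tram1 by 0.17 ± 0.086. The channel gene Sec61a1 differed by 0.096 ± 0.10, less than its SE, and by 0.19 without the mice numbered 1. Sec61a2 differed by 0.0059 ± 0.10, the smallest value among the members, and Sec62, which serves short secretory proteins, by 0.10 ± 0.079. Sec61b had the widest error, 0.38 ± 0.28, and differed by 0.20 without the mice numbered 1.

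Of the 10 OST genes, 2 were higher in PF at an unadjusted p under 0.05, and the median log2 fold change was 0.13. Ostc (ENSMUSG00000041084, chr3:130695912-130709444), a subunit of the OST form that works on chains still passing through the channel, stood at 120.0, 98.2, 111, 106 and 118 CPM in the PF mice 1 to 5 and at 82.2, 76.4, 77.1, 93.7 and 93.2 CPM in the SO mice. Its groups did not overlap, and its log2 fold change of 0.41 ± 0.097 was the largest among the members (adjusted p = 0.278 in edgeR and 0.0265 in DESeq2), with 0.36 without the mice numbered 1. Magt1 (ENSMUSG00000031232, chrX:105968084-106011906), an oxidoreductase of the OST form that glycosylates sites skipped in the first pass, stood at 154, 180.1, 203, 189 and 175 CPM in the PF mice 1 to 5 and at 138, 162, 151, 164 and 157 CPM in the SO mice. The PF mouse 1 lay within the range of the SO mice and the other PF mice above it, and the log2 fold change was 0.24 ± 0.075 (adjusted p = 0.349), or 0.25 without the mice numbered 1. The catalytic subunits differed by 0.15 ± 0.098 (Stt3a) and 0.090 ± 0.095 (Stt3b). Of the subunits shared by both forms, the differences were 0.070 ± 0.068 for Rpn2, 0.066 ± 0.081 for Ddost and 0.11 ± 0.12 for Dad1, with 0.18 ± 0.095 for Rpn1. Tusc3, the counterpart of Magt1, differed by 0.094 ± 0.085, and Krtcap2 by 0.33 ± 0.17, or 0.21 without the mice numbered 1.

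**Figure D4:**
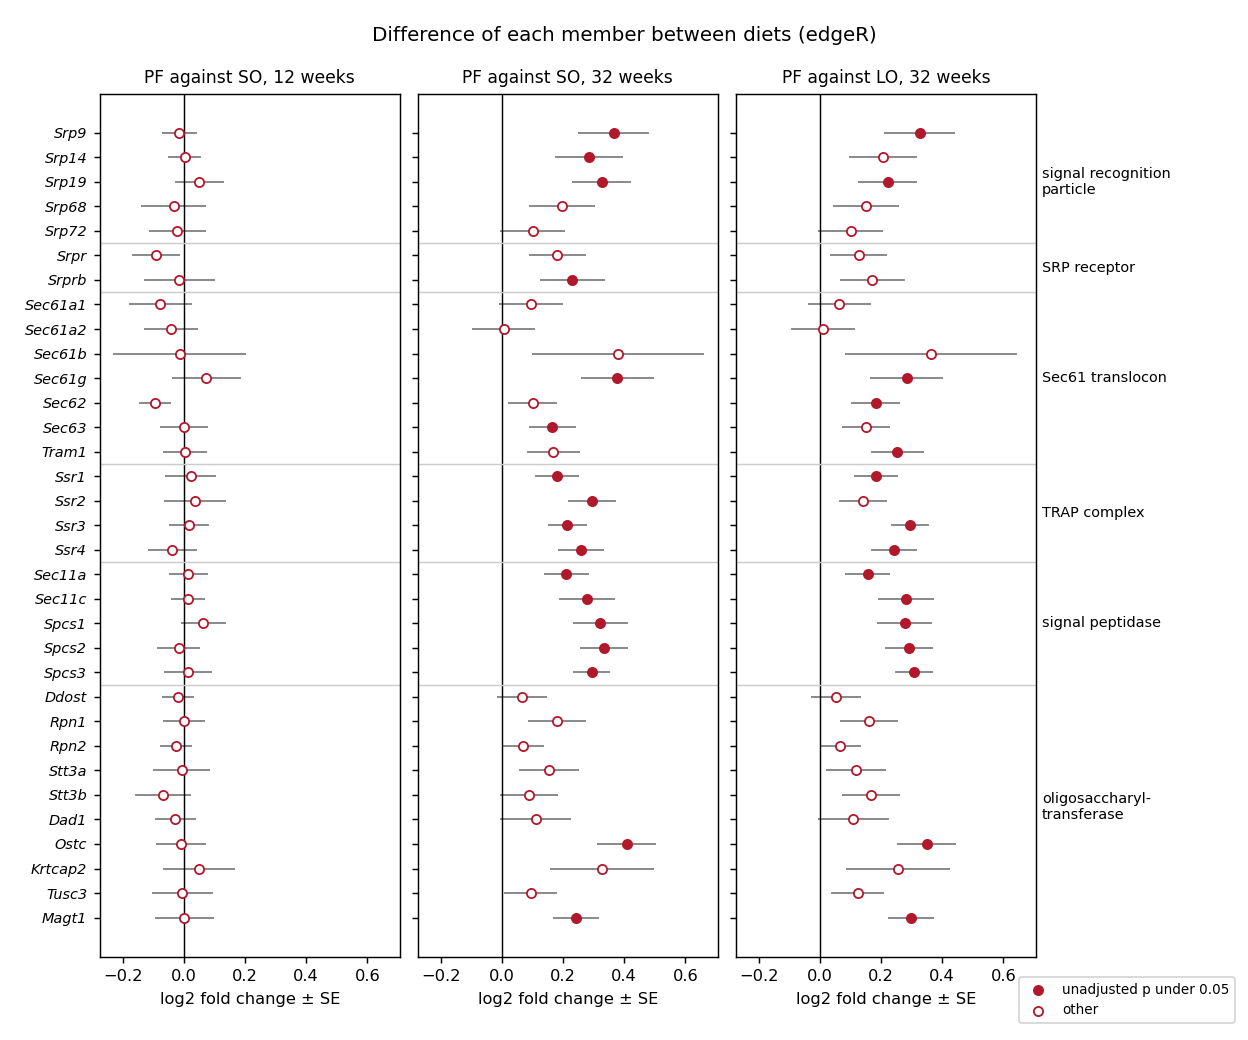
Log2 fold change ± SE (horizontal axes) of each of the 33 members (rows, by machine) for PF against SO at 12 weeks, PF against SO at 32 weeks and PF against LO at 32 weeks, filled where the unadjusted edgeR p was under 0.05. The points lie around 0 at 12 weeks and right of 0 for all 33 members in both comparisons at 32 weeks, with 17 and 15 filled points.

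PF mice also had the higher fitted level of all 33 members against LO at 32 weeks, a comparison that shares the PF mice with the one above. The median log2 fold change was 0.18, beside 0.0061 over all genes, and the members ranged from 0.011 to 0.36. edgeR called 0% of all genes and no member, with a lowest adjusted p of 0.226, and 15 of 33 members (45.5%) were higher at an unadjusted p under 0.05, beside 4.48% of all genes. The groups did not overlap for Ssr3 and Spcs3, 6.06% of the members beside 0.432% of all genes, and DESeq2 called the same 2, beside 0.272% of its genes. The LO mice stood at 187, 212, 191, 227 and 219 CPM for Spcs3 and at 304, 358, 317, 363 and 353 CPM for Ssr3. The differences were 0.31 ± 0.061 for Spcs3 (adjusted p = 0.226 in edgeR and 0.000612 in DESeq2) and 0.30 ± 0.063 for Ssr3 (adjusted p = 0.267 and 0.00274). Magt1 followed with LO mice at 128, 158, 139.8, 152 and 161 CPM and a difference of 0.30 ± 0.075 (adjusted p = 0.335). Without the mice numbered 1 the median was 0.163, and 14 members were higher at an unadjusted p under 0.05, beside 3.49% of all genes. Of the members, 5 were free of overlap, beside 1.08%, and all 33 stayed above 0. With single PF or LO mice left out, 31 to 33 stayed above 0.

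Between LO and SO at 32 weeks no member passed a test. The median log2 fold change of the members was 0.019, with 23 higher and 10 lower in LO, and none had an unadjusted p under 0.05, beside 1.5% of all genes higher in LO. edgeR and DESeq2 called no member, beside 0% of all genes in edgeR and 6 of 25678 in DESeq2. No member was free of overlap, beside 0.259% of all genes. The 3 differences with the lowest unadjusted p were 0.15 ± 0.079 for Ssr2, -0.081 ± 0.063 for Ssr3 and 0.10 ± 0.097 for Srp19, with p from 0.0735 to 0.294.

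At 12 weeks no member was called between any pair of diets. For PF against SO the median log2 fold change of the members was -0.0063, beside -0.015 over 15873 genes, with 15 members higher and 18 lower. No member had an unadjusted p under 0.05, beside 6.14% of all genes higher in PF, and edgeR called 0% of all genes and no member in any of the 3 comparisons. DESeq2 called no member either. It called 221 of the 17483 genes it tested in PF against SO and 76 of 14549 in PF against LO. In LO against SO it called 0 of 25367. No PF group lay wholly above the SO or the LO group for a member, beside 1.13% and 0.221% of all genes. Sec62 was the nearest to a difference and in the other direction, at 214, 226, 222, 222 and 228 CPM in the PF mice 1 to 5 and at 234, 233, 255, 237 and 231 CPM in the SO mice. Every PF mouse lay below every SO mouse for this gene, alone among the members (3.03%, beside 0.435% of all genes), with a log2 fold change of -0.094 ± 0.053 and an adjusted p of 0.803. Srpr stood at 540.4, 619, 626, 591 and 564 CPM in the PF mice 1 to 5 and at 540.0, 601, 629.5, 696 and 678 CPM in the SO mice, with overlap and a log2 fold change of -0.092 ± 0.079 (adjusted p = 0.995).

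The lowest p-values at 12 weeks concerned shared OST subunits in LO mice. Ddost, a subunit of the OST core, stood at 284, 251, 271, 249.5 and 258 CPM in LO, 309.8, 289.9, 277, 279 and 299 CPM in SO and 278, 288, 302, 287 and 276 CPM in PF mice. Of the 5 LO mice, 4 lay below every SO and PF mouse, with LO against SO at -0.15 ± 0.053 (unadjusted p = 0.0134, adjusted p = 0.999) and PF against LO at 0.13 ± 0.053 (adjusted p = 0.507). Dad1, a small subunit first known for its part in cell survival, stood at 132, 117, 125, 112 and 108 CPM in LO and 147, 122, 122, 130.2 and 150.0 CPM in SO mice, with overlap and a difference of -0.18 ± 0.067 (adjusted p = 0.999). Rpn2 stood at 517, 521, 539, 482 and 512 CPM in LO and 576, 558, 553, 540.1 and 579 CPM in SO mice. Every LO mouse was just below every SO mouse for Rpn2, alone among the members (3.03%, beside 0.347% of all genes), with a difference of -0.12 ± 0.052 (adjusted p = 0.999). In all, 4 members were lower in LO than in SO at an unadjusted p under 0.05 (12.1%, beside 1.76% of all genes), and 3 were higher in PF than in LO (9.09%, beside 4.31%). Without the mice numbered 1 no member was called at 12 weeks, the medians were 0.0105 for PF against SO, 0.0432 for PF against LO and -0.0402 for LO against SO, and LO against SO stood at -0.15 for Ddost, -0.18 for Dad1 and -0.12 for Rpn2.

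The 2 time points were compared within each diet to see which groups moved. In LO mice 32 of 33 members were lower at 32 than at 12 weeks, with a median log2 fold change of -0.16, and in SO mice 31 of 33 were lower, with a median of -0.18. The second channel gene Sec61a2 was the exception in LO (0.11 ± 0.098), and Sec61a2 (0.10 ± 0.099) and Tusc3 (0.029 ± 0.092) were those in SO. In PF mice 19 were higher and 14 lower, with a median of 0.019. The medians over all 16605 genes were -0.012, -0.0044 and 0.0033. At an unadjusted p under 0.05, 15 members were lower in LO (45.5%, beside 9.14% of all genes) and 19 in SO (57.6%, beside 7.11%), and 1 was higher in PF (3.03%, beside 4.98%). Without the mice numbered 1 the medians were -0.101 in LO, where 24 members were lower, -0.15 in SO, where 31 were lower, and -0.000795 in PF. In these comparisons age, time on diet and any difference in handling cannot be told apart.

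Past an adjusted p of 0.05 in edgeR, Sec62 and Ssr3 fell in LO mice, 6.06% of the members beside 2.7% of all genes called and 0.958% called lower. Sec62 had 242, 254, 237, 225 and 229 CPM at 12 weeks and 184, 202, 167, 214 and 217 CPM at 32 weeks, without overlap, and fell by 0.27 ± 0.064 on the log2 scale (adjusted p = 0.0214). Ssr3 had 403, 386, 406, 376 and 409.7 CPM at 12 weeks and 304, 358, 317, 363 and 353 CPM at 32 weeks, also without overlap, and fell by 0.22 ± 0.063 (adjusted p = 0.0493). Both calls were lost without the mice numbered 1, where the adjusted p was 0.0665 for Sec62 and 0.091 for Ssr3 and no member was called. Sec61a1 had 561, 476, 526, 436 and 419 CPM at 12 weeks and 427, 364, 356, 393 and 331 CPM at 32 weeks, with overlap and a difference of -0.37 ± 0.11 (adjusted p = 0.0539). In 4 members every LO mouse of 32 weeks lay below every LO mouse of 12 weeks, Srp68, Sec62, Ssr3 and Magt1 (12.1%, beside 2.26% of all genes), and without the mice numbered 1 this held for 6 members, beside 5.54%.

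In SO mice, Ssr4, Ostc and Spcs2 fell past the same threshold, 9.09% of the members beside 6.46% of all genes called and 1.22% called lower. Ssr4 had 336, 306, 343, 343 and 365 CPM at 12 weeks and 246, 252, 262, 249 and 289 CPM at 32 weeks, without overlap, and fell by 0.38 ± 0.077 on the log2 scale (adjusted p = 0.00503). Ostc had 101, 104, 106, 111 and 118 CPM at 12 weeks and 82.2, 76.4, 77.1, 93.7 and 93.2 CPM at 32 weeks and fell by 0.35 ± 0.089 (adjusted p = 0.0182), and Spcs2 had 263, 270.4, 294, 293 and 303 CPM at 12 weeks and 229, 227, 225, 244 and 247 CPM at 32 weeks and fell by 0.28 ± 0.071 (adjusted p = 0.0188), neither with overlap. Every SO mouse of 32 weeks lay below every SO mouse of 12 weeks for 10 members, Srpr, Sec62, Ssr4, Sec11c, Spcs2, Spcs3, Rpn1, Rpn2, Ostc and Magt1 (30.3%, beside 2.3% of all genes). Without the mice numbered 1, 11 members fell, beside 3.11% of all genes called lower, and 20 were free of overlap, beside 8.17%. They were Srp68, Srpr, Srprb, Sec61a1, Ssr2, Ssr4, Spcs2, Rpn1, Dad1, Ostc and Krtcap2. Without the SO mouse 5 of 12 weeks, only 1 of the 3 calls stood, that of Ssr4.

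In PF mice no member was called, beside 0.0301% of all genes, and none lay wholly lower at 32 weeks, beside 0.795%. DESeq2 called none either, beside 52 of the 17896 genes it tested. Srp9 had the lowest p, with 114, 111, 126, 121 and 130.5 CPM at 12 weeks and 185, 122, 133, 124 and 146 CPM at 32 weeks. The mouse numbered 1 stood highest at 32 weeks, and the log2 difference of 0.24 ± 0.089 (unadjusted p = 0.0117, adjusted p = 0.362) was 0.12 without the mice numbered 1. Dad1 had 130.1, 129, 129.8, 139.6 and 128 CPM at 12 weeks and 144, 115, 104, 119 and 104 CPM at 32 weeks and differed by -0.16 ± 0.092 (adjusted p = 0.565), and Srp19 differed by 0.15 ± 0.090 (adjusted p = 0.595).

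**Figure D5:**
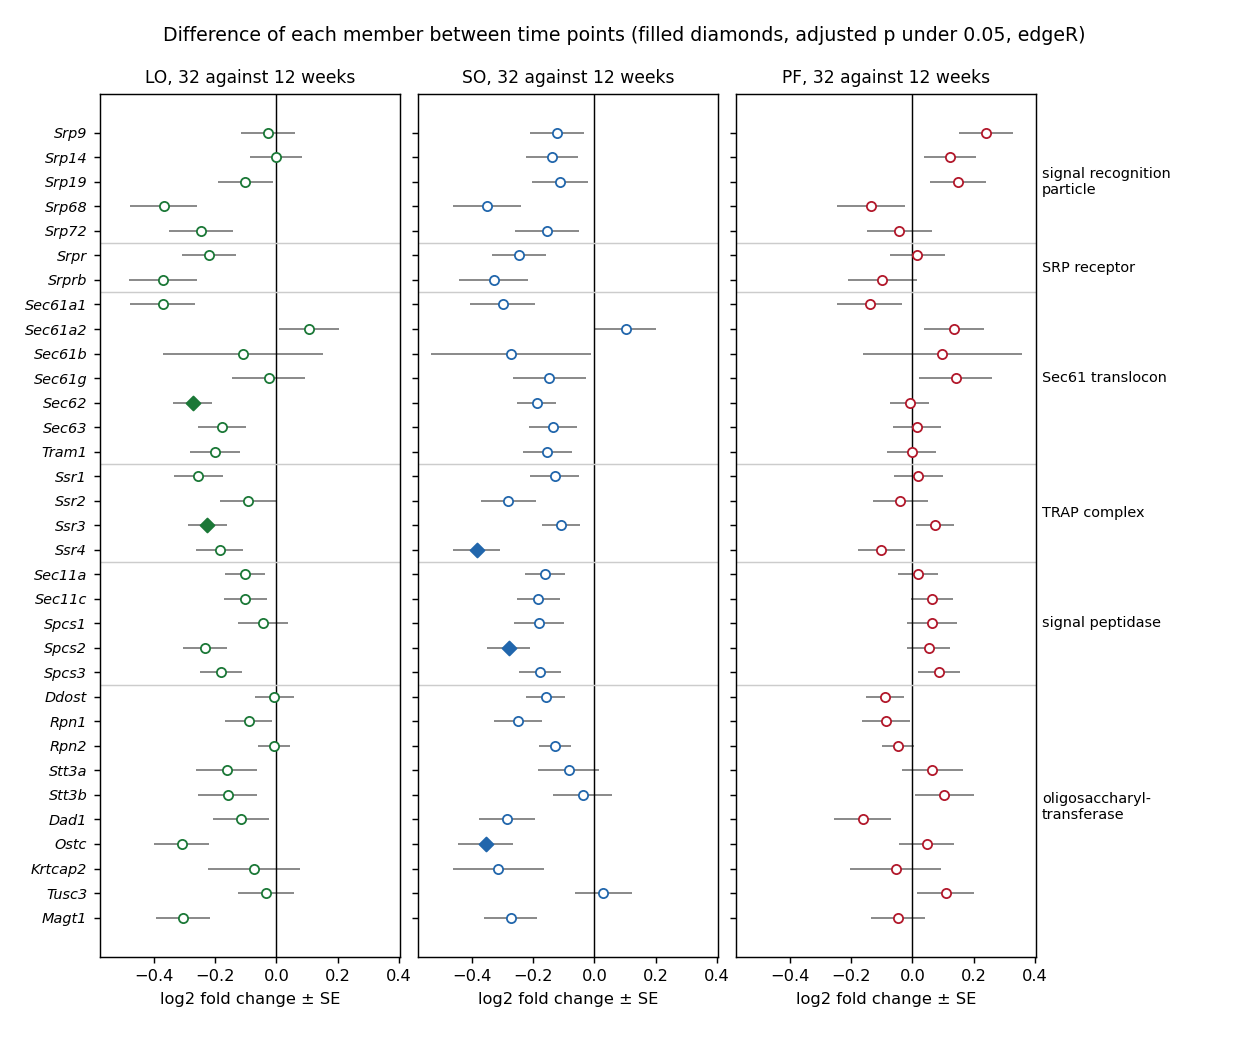
Log2 fold change ± SE (horizontal axes) of each of the 33 members (rows, by machine) at 32 against 12 weeks in LO, SO and PF mice, with filled diamonds for an adjusted edgeR p under 0.05. In LO, 32 points lie left of 0 and 2 are diamonds, in SO 31 lie left and 3 are diamonds, and in PF the points lie on both sides with no diamond.

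Whether the diet difference itself changed with time was tested by the interaction of diet and time. The PF minus SO difference was larger at 32 than at 12 weeks for all 33 members, with a median increase of 0.21 on the log2 scale beside -0.0045 over all genes, and 10 members had an unadjusted p under 0.05 (30.3%, beside 2.84% of all genes). None was called by edgeR, which called 0% of all genes, and the lowest adjusted p of a member was 0.237. None was called by DESeq2 either, beside 44 of the 19444 genes it tested. For Spcs2 the difference went from -0.016 to 0.33, with an interaction of 0.33 ± 0.10 (adjusted p = 0.237). The interactions were 0.40 ± 0.13 for Ostc (adjusted p = 0.247) and 0.36 ± 0.12 for Srp9 (adjusted p = 0.301), that of Srp9 being 0.20 without the mice numbered 1. The PF minus LO difference was larger at 32 weeks for 30 of 33 members, with a median increase of 0.20. Of the members, 8 had an unadjusted p under 0.05 (24.2%, beside 3.61%). Neither tool called a member, beside 0 of 16605 genes in edgeR and 14 of 14284 in DESeq2. The lowest edgeR p-values for PF minus LO belonged to Ssr3 (0.30 ± 0.089, adjusted p = 0.452), Sec62 (0.26 ± 0.090, adjusted p = 0.514) and Spcs2 (0.29 ± 0.10, adjusted p = 0.514). Without the mice numbered 1 the median for PF minus SO was 0.179, with 33 members above 0 and 8 at an unadjusted p under 0.05 (24.2%, beside 3.01% of all genes). For PF minus LO it was 0.141, with 23 members above 0 in place of 30 and 5 at an unadjusted p under 0.05 (15.2%, beside 4.6%). For LO minus SO the median was 0.025, with none at an unadjusted p under 0.05 and none called. These interactions share mice with the comparisons above.

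Several members are paralogs that take the same place in a machine, so their ratio within a mouse, which does not depend on library scaling, was compared between diets. Over the 30 mice the ratio of CPM ran from 3.03 to 5.85 for Magt1 over Tusc3, from 13.5 to 30.4 for Sec61a1 over Sec61a2, from 0.144 to 0.189 for Sec11a over Sec11c and from 1.04 to 1.44 for Stt3a over Stt3b. These ratios are not per length and compare mice, not the levels of the paralogs. They include the mice numbered 1 and are not given without them. In those mice edgeR had Sec61a1 higher (log2 difference 0.18 ± 0.068, adjusted p = 0.0413) and Sec61a2 lower (-0.27 ± 0.050, adjusted p = 0.000125). None of the 24 exact permutation tests passed an adjusted p under 0.05. With 5 mice against 5 the test cannot give a p under 0.00794. After adjustment over 24 tests, a ratio that alone reached this limit could not have passed. The lack of a call therefore does not show that the ratios were unchanged. The lowest p was 0.0397 for Sec11a over Sec11c in PF against LO at 32 weeks (two-sided exact permutation test, adjusted p = 0.789), where the mean log2 ratio was -2.62 ± 0.103 (SD over 5 mice) in PF mice and -2.51 ± 0.064 (SD over 5 mice) in LO mice.

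Genes that act next to these machines were described in the same comparison, PF against SO at 32 weeks, where edgeR called none of them and 5.71% of all genes were higher at an unadjusted p under 0.05. Further subunits of the same machines were listed together with the signal peptide peptidase gene Hm13, which is not a subunit of them. This list had 4 of 5 higher, 2 at an unadjusted p under 0.05, median 0.26 log2 fold change. Tmem258, an OST subunit, stood at 0.24 ± 0.083, Hm13 at 0.26 ± 0.10 and Ost4 at 0.27 ± 0.12. Genes that build the lipid-linked glycan had 19 of 23 higher, 5 at an unadjusted p under 0.05, median 0.091, led by Dpagt1, which starts the chain, at 0.25 ± 0.062 (adjusted p = 0.278 in edgeR and 0.0251 in DESeq2), Dhdds at 0.19 ± 0.053 and Alg5 at 0.23 ± 0.087. Genes of glycan trimming and the calnexin cycle had 13 of 15 higher, 4 at an unadjusted p under 0.05, median 0.10, with Mcfd2, a cargo receptor subunit, at 0.32 ± 0.054 (adjusted p = 0.143 in edgeR and 3.7e-06 in DESeq2), Edem1 at 0.28 ± 0.089 and Lman1 at 0.20 ± 0.087. Sensors and factors of the unfolded protein response had 9 of 11 higher, 5 at an unadjusted p under 0.05, median 0.20. Among them the chaperone gene Hspa5 (BiP) stood at 0.54 ± 0.11 (adjusted p = 0.204 in edgeR and 0.00138 in DESeq2), Xbp1 at 0.24 ± 0.062 (0.278 and 0.0302) and Atf4 at 0.30 ± 0.085 (0.318 and 0.0748). The ER membrane protein complex, another insertion machine, had 9 of 10 higher, 2 at an unadjusted p under 0.05, median 0.11, with Emc7 at 0.18 ± 0.061, Emc2 at 0.21 ± 0.091 and Emc4 at 0.17 ± 0.084, and the genes of tail-anchored protein insertion had 5 of 7 higher, 0 at an unadjusted p under 0.05, median 0.14, with Ubl4a at 0.17 ± 0.086, Camlg at 0.18 ± 0.10 and Wrb at 0.14 ± 0.089. From 12 to 32 weeks Lman1 and Mcfd2, which form a cargo receptor from the ER to the Golgi, fell in LO and in SO mice, beside 0.958% and 1.22% of all genes called lower, Edem3, Eif2ak3 and Ddit3 passed the threshold as lower in LO mice, and Dpagt1, Alg3, Dolk and Hm13 in SO mice.

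Markers of cell types differed between the same groups. The summed level of 7 luminal markers, most of it Sbp, lay between 125095 and 298155 CPM in PF mice at 32 weeks, against 144380 to 171376 CPM in SO and 107163 to 199511 CPM in LO mice. The medians were 260273, 157743 and 147873 CPM. Sbp took 9.5% of the counts in the PF mouse 2, 14.6% to 21.4% in the other PF mice and 11.3% to 12.5% in the SO mice. At 12 weeks the sum lay between 225768 and 320618 CPM in SO, 203669 and 325863 CPM in LO and 179008 and 335567 CPM in PF mice, with medians of 281454, 214372 and 262778 CPM. Sbp was 0.70 ± 0.25 higher on the log2 scale in PF than in SO (adjusted p = 0.39), and it fell with time in LO (-0.81 ± 0.22, adjusted p = 0.041) and in SO mice (-0.96 ± 0.22, adjusted p = 0.01). Of the 7 luminal markers, Sbp included, 5 were higher in PF than in SO at 32 weeks. Their median log2 fold change was 0.17, and 2 were higher at an unadjusted p under 0.05, beside 5.71% of all genes. From 12 to 32 weeks 4 of the 7 were lower in LO, in SO and in PF, with medians of -0.062, -0.19 and -0.036. The 6 markers of B and plasma cells summed to 87.2 to 281 CPM in LO and 108 to 174 CPM in SO mice at 12 weeks, and in PF mice of that time to 55.2 to 2307 CPM, with a median of 238 CPM. At 12 weeks all 5 of them that were tested, and 4 of the 5 markers of T and myeloid cells, were higher in PF than in SO at an unadjusted p under 0.05, with none called. At 32 weeks the 6 summed to 384 to 4192, 202 to 1996 and 1068 to 3031 CPM in LO, SO and PF mice. All 6 were higher at 32 weeks in LO and in SO, and 3 and 5 of them were called, beside 2.7% and 6.46% of all genes. In PF 4 of the 6 were higher and none was called, beside 0.0301% of all genes. All 5 markers of T and myeloid cells were higher at 32 weeks in LO, in SO and in PF, with medians of 0.86, 1.23 and 0.066. Of these, 4 were called in SO and none in LO or PF. All 3 basal markers were higher at 32 weeks in LO and in SO, 2 of them called in LO and 1 in SO. In PF 2 of the 3 were higher, with none called. In PF against SO at 32 weeks none of the markers was called. All 3 haemoglobin genes had higher fitted levels in PF, at 28.9 to 409 CPM in sum against 15.3 to 60.8 CPM. So did all 3 adipocyte markers, at 8.53 to 176 against 2.97 to 70 CPM. The median log2 fold changes were 2.48 and 1.84, with 3 and 2 genes at an unadjusted p under 0.05, beside 5.71% of all genes. Of the 6 markers of B and plasma cells, 4 were higher, with a median of 0.35. The 3 endothelial and 5 fibroblast markers were also higher in PF, with median log2 fold changes of 0.082 and 0.038, and the 4 smooth muscle, 3 basal and 5 T and myeloid markers were lower, with medians of -0.095, -0.21 and -0.17. In PF against LO at 32 weeks, where no marker was called either, 5 of 7 luminal, all 3 haemoglobin and all 3 adipocyte markers were higher, with medians of 0.15, 1.43 and 1.2. All 5 fibroblast markers (median -0.20), all 3 basal markers (-0.58, 2 at an unadjusted p under 0.05), all 4 smooth muscle markers (-0.090), 5 of 6 markers of B and plasma cells (-0.37), 4 of 5 of T and myeloid cells (-0.25) and 2 of 3 endothelial markers (-0.11) were lower. The part of these cell types in the members' differences was not tested, and in such bulk samples fewer cells of a type and less RNA per cell cannot be told apart.

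Promoters were read because the members differed in the same direction and because the unfolded protein response acts through known DNA motifs. RefSeq promoters (GRCm38.p6, 250 bases before to 50 after each start) were found for 25 of the 34 members, and motifs were searched on both strands. The ER stress response element, CCAAT and CCACG with 9 letters between, was in 0 of the 25 members' promoters and in 0.137% of all 27025. Its second form, ATTGG and CCACG with 1 letter between, was in 1 member, Krtcap2, after its start, and in 0.0444% of all. The core of the unfolded protein response element, TGACGTG, was in 1 member, Srpr, and in 2.22% of all. The parts of the first motif, which overlap it by construction, were searched on their own once the values were known, and CCACG was in 16 of 25 (64%, beside 35.5% of all) and CCAAT in 15 of 25 (60%, beside 41.1%). These are matches of letters, not measured sites. The shares over all promoters include genes not expressed here and were not matched to the members for base content, so they do not show an enrichment particular to the members. Of the 8 members whose PF and SO groups did not overlap at 32 weeks, 4 had a promoter in the table. The 150 bases before the start are shown for Spcs1, Sec61g and Srp9, with CCACG and CCAAT, or their reverse complements, in capitals. In these windows Spcs1 holds CCACG in each orientation, Sec61g a reversed CCAAT and Srp9 neither, and 72.7%, 37.3% and 66% of their letters are G or C. The windows are shorter than the region searched, in which Srp9 held both CCACG and CCAAT and is among the members counted for each.
Spcs1, chr14:31001667-31001816, minus strand: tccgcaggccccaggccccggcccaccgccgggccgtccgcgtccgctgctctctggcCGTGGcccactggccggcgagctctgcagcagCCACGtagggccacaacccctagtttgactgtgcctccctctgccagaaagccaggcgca
Sec61g, chr11:16508485-16508634, minus strand: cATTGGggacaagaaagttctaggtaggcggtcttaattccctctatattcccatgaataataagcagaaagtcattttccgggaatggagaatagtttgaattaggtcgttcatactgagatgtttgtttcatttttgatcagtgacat
Srp9, chr1:182124587-182124736, plus strand: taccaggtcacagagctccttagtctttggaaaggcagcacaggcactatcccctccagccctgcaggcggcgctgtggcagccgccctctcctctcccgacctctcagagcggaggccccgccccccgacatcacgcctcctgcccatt
For Spcs2, the remaining one, and Srpr, shown for its TGACGTG, whose start lies inside another annotated transcript, 30 bases are shown around CCAAT of Spcs2, at positions -45 to -41 from the start, and around TGACGTG of Srpr, at -13 to -7.
Spcs2, chr7:99858911-99858940, minus strand: gagcagcttcagCCAATcggcttcggacaa
Srpr, chr9:35211173-35211202, plus strand: tccgggggctgctggtgTGACGTGtcccgc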

How the data were processed

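Ventral prostate RNA of 30 mice had been sequenced with a stranded kit, and the authors deposited 1 table of counts per mouse, whole numbers per Ensembl gene with no normalization. The submitters' processing notes name GRCm38.p6, TopHat, TopHat2, HTSeq and DESeq2, and the versions and the strand setting of the counting are not given in the sources used here. Reads with more than 1 alignment or more than 1 gene were set aside in lines of their own and were left out of library sizes and tests, so members with processed pseudogenes can be undercounted.

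Counts were analysed with edgeR 4.0.16 (filterByExpr, TMM scaling, quasi-likelihood F test, R 4.3.3), diet comparisons being fitted per time point on all 3 diets, and time and interactions on all 6 groups. A gene was called at a Benjamini-Hochberg adjusted p under 0.05, and SE is the log2 fold change over the square root of F. Unless another tool is named, every p is from edgeR. DESeq2 1.42.0 was the alternative tool. CPM used TMM factors over all 30 mice. Paralog ratios were tested with scipy 1.17.1. Symbols, lengths and coordinates came from GENCODE M21 (GRCm38) and matched 37607 of 39179 identifiers.

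The members and all lists were chosen with earlier results of these data known. Values in every mouse were given for the 10 members with the smallest edgeR p in PF against SO at 32 weeks and for up to 3 further members in other comparisons, and up to 3 genes of each neighbouring list were named. On simulated counts for PF against SO at 32 weeks (16218 genes), edgeR recovered 12% of changes of 0.5 and 57% of changes of 1 on the log2 scale, and DESeq2 31% and 73%. Among the 16018 genes simulated without a change, edgeR made 1 false call and DESeq2 23. For SO at 32 against 12 weeks (16605 genes), edgeR recovered 31% and 58%, and DESeq2 38% and 67%. False calls there were 2 for edgeR and 17 for DESeq2 among 16405 unchanged genes. In 60 pairs of mice of the same group, chi-square over its degrees of freedom was at least 24.5 for their counts, so every mouse was counted as a sample of its own.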

Additional observations from a re-analysis of the deposited data

Results flagged for a closer look

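Among the 17 members with values in every mouse, 6 of 102 group checks found a mouse far from the other 4 of its group by Dixon's test, where chance gives about 1 in 20, or 5.1. The mice numbered 1 accounted for 3 of the 6. Ssr2 was at 174 CPM in the PF mouse 1 of 32 weeks, with the others at 145 to 152 CPM. Sec61g was at 79.7 CPM in the SO mouse 1 of 32 weeks, below the others at 110.2 to 118 CPM. Sec61a1 was at 464 CPM in the same mouse, above the others at 321 to 360 CPM. Sec62 was at 255 CPM in the SO mouse 3 of 12 weeks, above 231 to 237 CPM, and at 192 CPM in the PF mouse 2 of 32 weeks, below 226 to 230 CPM. Dad1 was at 140 CPM in the PF mouse 4 of 12 weeks, above 128 to 130 CPM.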

How the results depend on the processing

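The diet comparisons, at 12 and at 32 weeks, and their interactions with time gave 0 called members in edgeR under every setting of that tool that was run, single mice left out included, while DESeq2 called 3 members in PF against SO and 2 in PF against LO at 32 weeks. On the simulated counts for PF against SO, DESeq2 made more false calls than edgeR, 23 against 1 among 16018 unchanged genes. The counts of members called with time depended more on the settings. In LO, where edgeR called 2, DESeq2 called 9, each of the relative log expression size factors, no filter on low counts, a filter of at least 10 counts in every sample and the robust fit gave 1, a threshold of 0.1 gave 9, leaving out the mice numbered 1 gave 0, and leaving out single mice gave 0 to 6. The count was 0 without the LO mice 2 or 3 of 12 weeks or the LO mice 1 or 3 of 32 weeks, and 6 without the LO mouse 4 of either time point. Sec62 was not called in those 4 cases, and Ssr3 was called in 1 of 10, without the LO mouse 4 of 32 weeks. In SO, where edgeR called 3, DESeq2 called 9, the relative log expression size factors gave 5, a threshold of 0.1 gave 12, leaving out the mice numbered 1 gave 11, and leaving out single mice gave 1 to 8, with 1 without the SO mouse 5 of 12 weeks and 8 without the SO mouse 1 of 32 weeks. The counts over all genes moved as well. In LO edgeR called 448 of 16605 genes, DESeq2 1096 of 16347, and edgeR without the mice numbered 1 called 459 of 16538. In SO these counts were 1073 of 16605, 1484 of 18928 and 1469 of 16538. Leaving out single mice gave 47 to 1043 genes in LO and 226 to 1556 in SO. The cause of these shifts was not tested.

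With the mouse number as a replicate block, LO gave 5 and SO 7 members called with time, beside 668 and 1224 of 16605 genes. The labels do not say that mice of different groups share a number for a reason. Correlations of the deviations of same-numbered mice had means of 0.0765 at 12 weeks and 0.135 at 32 weeks and reached down to -0.15 and -0.427, though the mice numbered 1 reached means of 0.489 and 0.46, so the numbers were not taken as pairs.

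With 5 mice a group and 27590631 to 41301707 counts each, edgeR recovered 12% of the changes of 0.5 on the log2 scale simulated over all genes for PF against SO at 32 weeks. Smaller changes, and the members on their own, were not simulated. A member that was not called is not thereby shown to be equal between groups.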
